A study of Mus musculus with 4 samples.

Results

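The genes of mitosis and of the G2 phase before it were followed in 4 RNA sequencing libraries of mouse brain endothelial cells. The set held 49 genes, given as a list of names and matched by gene symbol to the deposited tables. All 49 were found, each once, in the table of embryonic day 15 (E15), which lists 19031 genes, and in that of embryonic day 18 (E18), which lists 17344. Of the 20194 genes in either table, 16181 are in both. The groups were wild type (WT) and UCP2f/f;Tie2-cre, hereafter the knockout, at each of the stages, all on the C57BL/6 strain. In the knockout a floxed Ucp2 gene meets Cre recombinase made from the Tie2 promoter, which is active in endothelial cells and in much of the blood lineage. Ucp2 encodes a carrier of the inner mitochondrial membrane. The labels do not say whether the wild-type embryos carried a Cre transgene, how cells were isolated or how many embryos went into a library. The series' design text speaks of triplicates, and 1 library per group was analysed here.

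A dividing cell copies its DNA, checks it in G2, and then separates the copies in mitosis. Cyclin-dependent kinase 1 with cyclin B starts mitosis, condensin and topoisomerase shape the chromosomes, kinetochores attach them to a spindle of microtubules, and the anaphase-promoting complex ends the phase by marking cyclin B for destruction. Many of these genes are transcribed only in cycling cells, in late S phase to mitosis, so that in bulk RNA their level follows both the number of cycling cells and the RNA each one holds, which cannot be told apart here. Brain vessels grow by sprouting and division of endothelial cells in the embryo, and the endothelium becomes quiescent as it matures.

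The promoters of such genes are known for a pair of elements. The cell cycle genes homology region, bound by the DREAM and MuvB complexes, was searched as TTTGAA or TTTAAA, and the CCAAT box, bound by NF-Y, as CCAAT. Both strands were searched in RefSeq windows (build GRCm38.p6) that run from 250 bases before a gene's start to 50 bases after it. Windows were found for 41 of the 49 genes, 45 in all. The genes without one are Aurkb, Ccna2, Cdc25c, Cdca2, Dlgap5, Kif20a, Smc4 and Tpx2. TTTGAA or TTTAAA stood in 40 of the 45 windows (88.9%), against 27.6% of all 32851 windows in the table. CCAAT stood in 37 (82.2%), against 37.4%, and 2 or more CCAAT boxes in 24 (53.3%), against 11.7%. Both elements stood together in 35 windows (77.8%), against 10.7%. These are matches of letters and say nothing of binding.

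Promoters of 6 genes are shown as examples of transcripts with different patterns in what follows, with each element searched in capitals wherever it stands, on either strand. Ttk, Cdc20 and Top2a were low in the wild-type library at E18 (chr9:83834439-83834738 on the plus strand, chr4:118437294-118437593 on the minus strand and chr11:99024140-99024439 on the minus strand). Cenpf and Kif20b were lowest in the knockout library at E18 (chr1:189688037-189688336 on the minus strand and chr19:34922108-34922407 on the plus strand). Ckap5 was the member without a lower level at E18 in the wild type (chr2:91526512-91526811 on the plus strand). The window of Kif20b holds no CCAAT box and a doubled TTTGAA, while those of Ttk and Cenpf, whose E18 genotype ratios had opposite signs, both hold each kind of element.
Ttk: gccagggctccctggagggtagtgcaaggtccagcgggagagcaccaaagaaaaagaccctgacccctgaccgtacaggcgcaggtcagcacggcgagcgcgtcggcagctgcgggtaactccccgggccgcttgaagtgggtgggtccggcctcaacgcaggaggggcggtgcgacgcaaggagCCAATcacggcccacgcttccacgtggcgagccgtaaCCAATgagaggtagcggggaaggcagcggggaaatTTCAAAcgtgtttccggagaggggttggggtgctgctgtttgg
Cdc20: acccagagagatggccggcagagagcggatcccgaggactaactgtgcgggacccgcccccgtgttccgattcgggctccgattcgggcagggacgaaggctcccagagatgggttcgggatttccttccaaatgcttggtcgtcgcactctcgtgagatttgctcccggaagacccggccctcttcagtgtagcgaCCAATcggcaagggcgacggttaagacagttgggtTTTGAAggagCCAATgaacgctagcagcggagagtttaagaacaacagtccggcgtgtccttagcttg
Top2a: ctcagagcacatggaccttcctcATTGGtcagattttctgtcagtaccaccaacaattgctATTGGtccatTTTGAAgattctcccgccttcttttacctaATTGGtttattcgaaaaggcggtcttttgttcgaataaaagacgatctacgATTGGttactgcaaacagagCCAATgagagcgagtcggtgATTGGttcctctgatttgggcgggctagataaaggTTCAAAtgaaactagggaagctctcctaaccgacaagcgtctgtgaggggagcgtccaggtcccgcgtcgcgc
Cenpf: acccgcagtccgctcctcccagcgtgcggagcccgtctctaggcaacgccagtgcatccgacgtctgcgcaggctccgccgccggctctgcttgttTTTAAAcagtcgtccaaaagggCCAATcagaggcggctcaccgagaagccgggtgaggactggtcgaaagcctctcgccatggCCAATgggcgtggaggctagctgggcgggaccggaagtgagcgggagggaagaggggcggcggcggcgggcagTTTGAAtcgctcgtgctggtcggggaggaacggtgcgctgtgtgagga
Kif20b: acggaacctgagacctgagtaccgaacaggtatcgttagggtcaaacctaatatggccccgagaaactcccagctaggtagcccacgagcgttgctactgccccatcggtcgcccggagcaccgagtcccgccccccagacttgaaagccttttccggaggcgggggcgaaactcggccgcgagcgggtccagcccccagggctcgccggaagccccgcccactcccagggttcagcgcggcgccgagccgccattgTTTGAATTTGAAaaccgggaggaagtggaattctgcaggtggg
Ckap5: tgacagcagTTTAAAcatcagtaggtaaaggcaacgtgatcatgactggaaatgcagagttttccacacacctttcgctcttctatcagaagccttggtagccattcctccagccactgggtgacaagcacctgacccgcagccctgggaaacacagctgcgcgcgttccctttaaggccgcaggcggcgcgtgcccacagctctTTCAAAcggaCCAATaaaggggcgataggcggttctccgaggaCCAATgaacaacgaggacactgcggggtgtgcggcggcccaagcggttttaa

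Library totals over the listed genes ranged from 15542930 to 21992660 reads. Each count was divided by its library total and given as CPM, the read count scaled to a library of 1000000 reads. The targeted gene Ucp2 had 276 and 163 CPM at E15 (wild type, then knockout) and 351 and 150 CPM at E18, so it was lower with the knockout label at each stage and was still detected. At E18 the pair also differed in sex-linked transcripts. The wild type gave 0 Xist and 5826 reads of the Y-linked Ddx3y, the knockout 547 and 0, so genotype and sex cannot be told apart there. The E15 pair had 2549 and 2109 Xist reads. Endothelial markers were present in all libraries, with 14 of 14 detected and a summed level between 25910 and 29068 CPM. Markers of microglia and macrophages (12 of 12 genes measured) summed to 656 and 313 CPM at E15 and to 89.3 and 159 CPM at E18, each time wild type first, with Tmem119 at 0 reads in the wild-type library at E18. That order of the libraries is also the order of the mitosis genes below, and the part of these cells in the results was not tested. Neural progenitor markers (10 of 12 in both tables) summed to between 279 and 408 CPM, lowest in the wild-type library at E15. Most of each sum was Nes, with 252 and 387 CPM at E15 and 244 and 258 CPM at E18. Fabp7 (8.3 and 4.78, then 24.3 and 18 CPM) and Slc1a3 (9.39 and 11, then 35.4 and 21.7 CPM) were higher at E18. Of 6 such markers measured in the wild-type stage pair, 3 were above 0 and 3 below. Neurog2 was at 0 reads in the knockout library at E15 and the wild-type library at E18, and Hopx in the knockout library at E15. Erythroid markers (10 of 12 in both tables) summed to 445 and 547 CPM at E15 and to 947 and 741 CPM at E18. Pericyte and smooth muscle markers summed to 7323 and 4887 CPM, then 9325 and 11642 CPM.

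The 49 genes were expressed in every library and were highest at E15. Together they made up 3047 CPM in the wild-type and 2733 CPM in the knockout library at E15, and 1766 and 1952 CPM at E18. The median gene stood at 52.1, 51.6, 28.2 and 34.1 CPM in the same order, which is kept in all sentences that give 4 values. Single values ran from 2.82 CPM (Ccnb2 in the knockout library at E18) to 210 CPM (Hjurp in the wild-type library at E15), without correction for length. Of the 49 genes, 36 had their highest level in the wild-type library at E15, 11 in the knockout library at E15, and 1 in each E18 library (Ckap5 in the wild type, Kif4 in the knockout). The lowest level fell in the wild-type library at E18 for 37 genes and in the knockout library at E18 for 12. On a scale per kilobase of exon, Cdc20 had the highest mean level (50.1 CPM per kb), ahead of Smc4 (25.1), Aurkb (24.4), Birc5 (22.7) and Aurka (21.7), and Kif23 (2.07) and Cenpf (2.10) had the lowest.

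**Figure D1:**
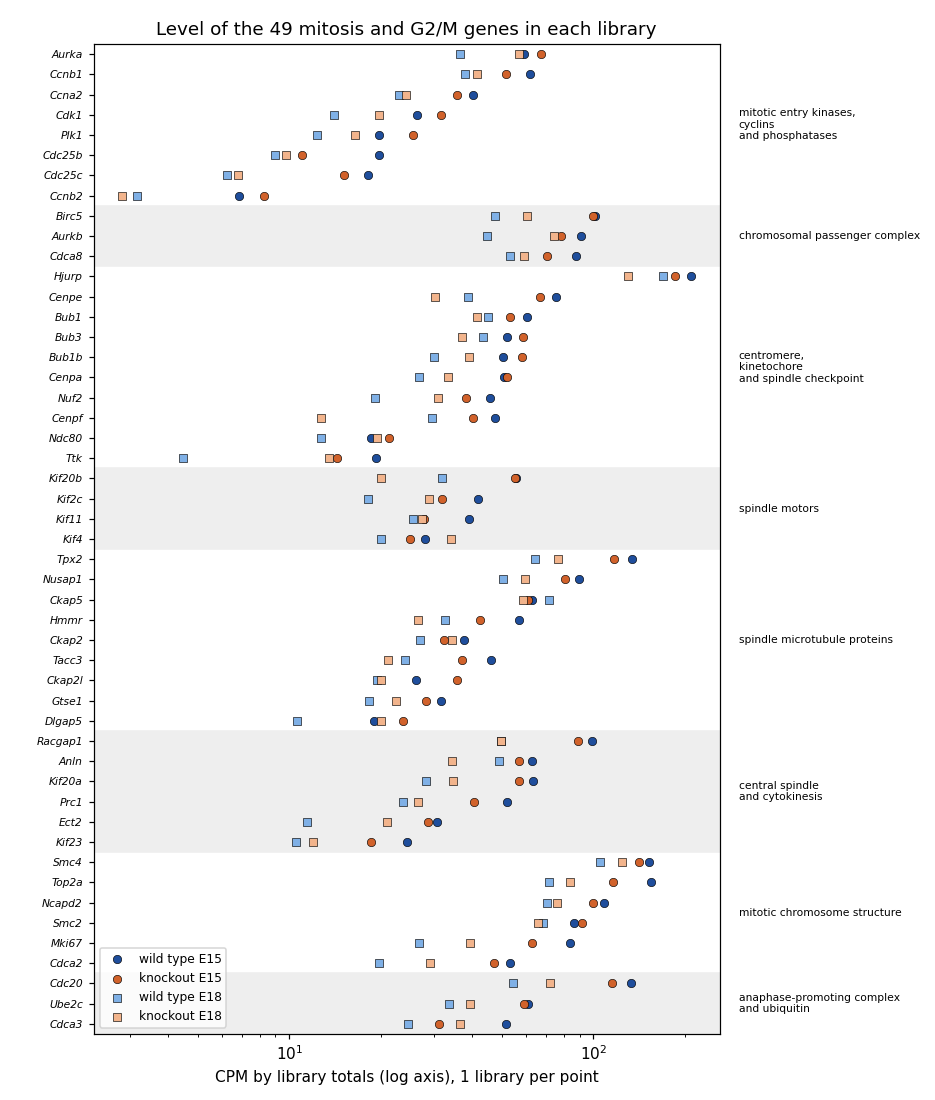
CPM by library totals (log axis) of the 49 genes, grouped by role, with 1 point per library: circles for E15, squares for E18, blue for wild type and orange for knockout. The squares lie left of the circles for most genes. Ckap5 and Kif4 are the genes whose highest point is a square.

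In wild-type endothelium the mitosis genes were lower at E18 in 48 of 49 cases. Differences are given as log2 ratios of CPM with a pseudocount of 1 CPM, beside the exact Clopper-Pearson 95% interval of the ratio of reads without it, which covers counting error only. Groups of 1 library give no spread between replicates, so these ratios carry no p-value. The median ratio of the 49 genes was -0.81, against -0.11 over all 12515 genes measured. The interval lay below 0 for 48 members, where 43.4% of all genes did so, and above 0 for 1 (Ckap5), where 24.1% did. A 2-fold difference was reached by 17 members, all lower, against 10.7% of all genes in either direction. Those 17 included Ttk, Mki67, Cdc25c, Cdca2, Ect2, Cdc20, Nuf2, Kif2c, Kif23 and Kif20a, which also passed 2-fold after scaling by TMM (trimmed mean of M values). Aurkb, Birc5, Cdc25b, Cdca3, Prc1, Top2a and Tpx2 did not pass under TMM. All genes together stood 0.11 lower at E18 by library totals and at 0.00 under TMM, where the members' median was -0.69. The stages come from separate tables, so stage cannot be told apart from anything else that differed between those pairs of libraries. In the wild type that includes sex-linked transcripts, with 2549 Xist reads at E15 and 0 at E18, so stage and sex cannot be told apart there. Microglial and macrophage markers had a median ratio of -3.29 in the wild-type pair, with 10 of 11 below 0. Neuronal (-0.65, 8 of 9), oligodendrocyte lineage (-1.28, 3 of 3) and fibroblast and meningeal markers (-0.50, 3 of 4) were mostly below 0 too. Medians lay above 0 for pericyte and smooth muscle (0.37, 8 of 9 above 0), astrocyte (1.96, 3 measured) and erythroid markers (0.52). Those of neural progenitor (0.19, 6 measured) and endothelial markers (0.09) did so too. Their part in the members' ratios was not tested.

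In knockout endothelium 46 of 49 members were lower at E18, by a smaller median (-0.54, against -0.10 over all 12465 genes). The interval lay below 0 for 39 (43.6% of all genes) and above 0 for 2, Kif4 and Cdca3 (29.0% of all genes). Ckap2, the other member with a ratio above 0, had 0.08 with an interval of -0.08 to 0.25. Only 5 members passed 2-fold, all lower: Cenpf, Kif20b, Ccnb2, Cenpe and Cdc25c. That share is under the 15.3% of all genes that passed. Under TMM 7 members stood above 0, with Aurkb, Ckap5, Kif11 and Ttk added to the 3, and Cdc25c no longer passed 2-fold. This pair too differed in Xist, with 2109 reads at E15 and 547 at E18 (log2 -2.33, interval -2.51 to -2.24). Stage cannot be told apart from that difference, also for the X-linked Kif4. Microglial and macrophage markers had a median ratio of -1.66, with 9 of 11 below 0, neuronal markers one of -0.47 and erythroid markers one of -0.52. Medians lay above 0 for pericyte and smooth muscle (1.05, 8 of 9 above 0) and fibroblast and meningeal markers (0.90, 4 of 4). Those of astrocyte (1.21, 3 measured), neural progenitor (0.33, 4 measured) and endothelial markers (0.12) did so too. The part of these cells was not tested. Whether the stage ratios differed between the genotypes was not tested either, since each has 1 library per stage.

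**Figure D2:**
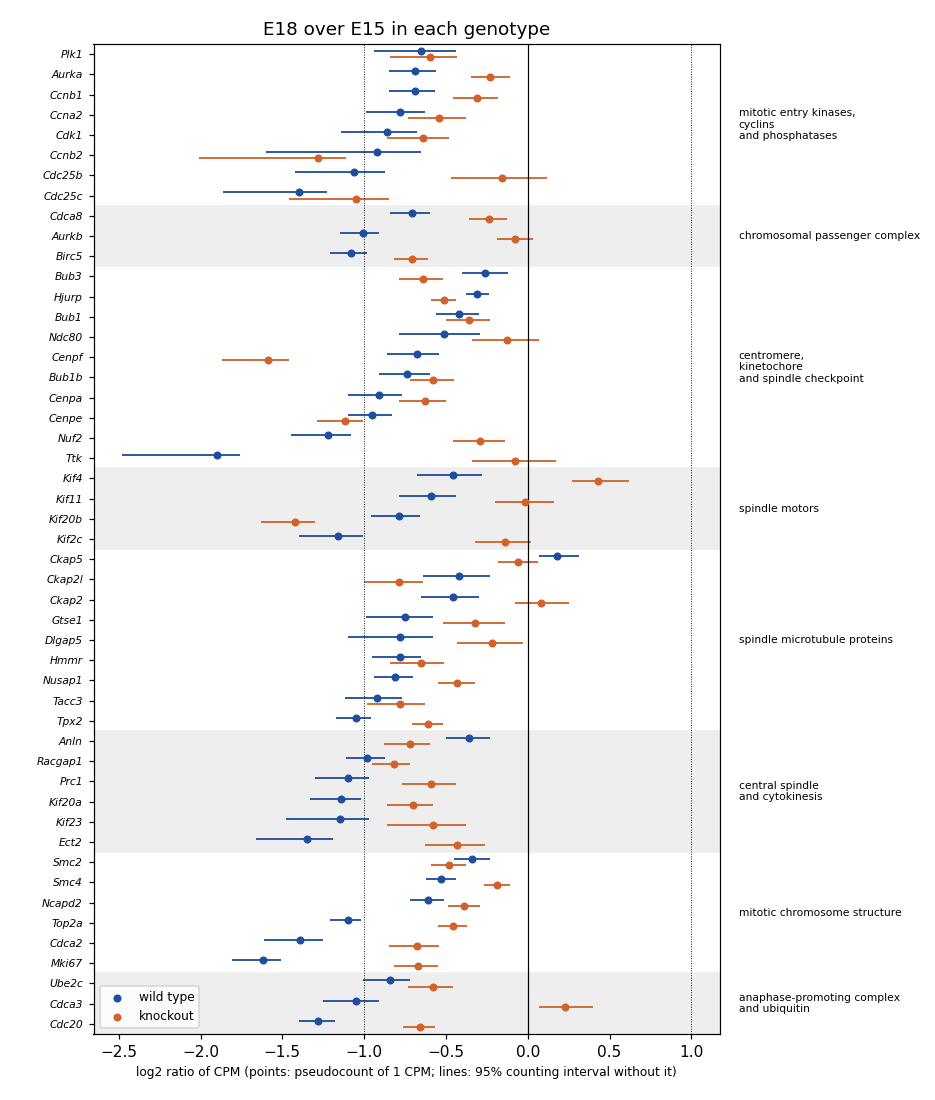
Log2 ratio of E18 over E15 for each of the 49 genes, in the wild type (blue) and the knockout (orange). Points have a pseudocount of 1 CPM, lines are 95% counting intervals without it, dotted lines mark 2-fold. Nearly all points lie left of 0, and those of the knockout lie closer to 0 than those of the wild type for Ttk, Mki67 and Aurkb, and farther for Cenpf and Kif20b.

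At E15 the mitosis genes were slightly lower in the knockout than in the wild-type library. The median ratio was -0.17, against -0.01 over all 12633 genes, with 38 of 49 members below 0. The interval lay below 0 for 31 members (30.5% of all genes) and above 0 for 7 (28.9%). No member passed 2-fold, against 6.87% of all genes. The lowest ratios were those of Cdc25b (-0.79), Cdca3 (-0.72) and Kif11 (-0.47), and the highest those of Ckap2l (0.43), Plk1 (0.36) and Dlgap5 (0.29). Beside this pair, microglial and macrophage markers had a median ratio of -0.94, with 11 of 12 below 0, and neuronal markers one of -0.98, with 8 of 8 below 0. Markers of pericytes and smooth muscle (-0.62, 7 of 8 below 0), fibroblasts and meninges (-0.96, 4 of 4) and the oligodendrocyte lineage (-1.42, 3 of 3) were lower in the same pair. Medians stood at 0.21 for neural progenitor (5 measured, -2.11 to 0.61) and 0.14 for astrocyte markers (2 measured). They were 0.00 for erythroid and -0.01 for endothelial markers. Their part in the members' ratios was not tested.

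At E18 the order was the opposite, and the mitosis genes were higher in the knockout library. The median ratio was 0.22, against 0.00 over all 12349 genes, with 37 of 49 members above 0. The interval lay above 0 for 28 members (32.5% of all genes) and below 0 for 8 (31.9%). Only Ttk passed 2-fold upward and only Cenpf downward, against 6.80% of all genes in either direction. The 3 highest ratios were those of Ttk (1.42), Dlgap5 (0.86) and Ect2 (0.83), and the 3 lowest those of Cenpf (-1.15), Kif20b (-0.64) and Anln (-0.50). Microglial and macrophage markers had a median ratio of 0.70 in this pair, with 10 of 11 above 0. Pericyte and smooth muscle markers had one of 0.13 and neural progenitor markers one of 0.08. Medians lay below 0 for neuronal (-0.24), astrocyte (-0.53), erythroid (-0.55, 8 of 10 below 0) and oligodendrocyte lineage markers (-0.83). Those of fibroblasts and meninges (-0.17) and endothelium (-0.05) did so too. The part of these cells in the members' ratios was not tested. Kif4 lies on the X chromosome, in a pair that differed in sex-linked transcripts. Its ratio of 0.74 cannot be told apart from that difference.

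The 2 genotype comparisons share no library. For each gene, though, the difference between them equals that between its 2 stage ratios, so those are not separate results. Of the 49 members, 29 (59.2%) were below 0 at E15 and above 0 at E18, where 24.6% of the 11784 genes measured at both stages were. With intervals clear of 0 on opposite sides, 16 (32.7%) had this pattern, against 10% of all genes: Aurkb, Cdc20, Cdca2, Cdca3, Cdca8, Ckap2, Kif20a, Kif2c, Mki67, Ncapd2, Nuf2, Nusap1, Smc4, Top2a, Tpx2 and Ttk. The reverse pattern was found in 1 member, Bub3, against 8.49% of all genes. Lower at both stages by this measure were Anln, Cenpe, Cenpf, Hjurp and Hmmr, and higher at both were Aurka, Bub1b, Cdk1, Dlgap5 and Plk1. Those groups of 5 are 10.2% of the members each, close to the 11.1% and 10.5% of all genes.

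**Figure D3:**
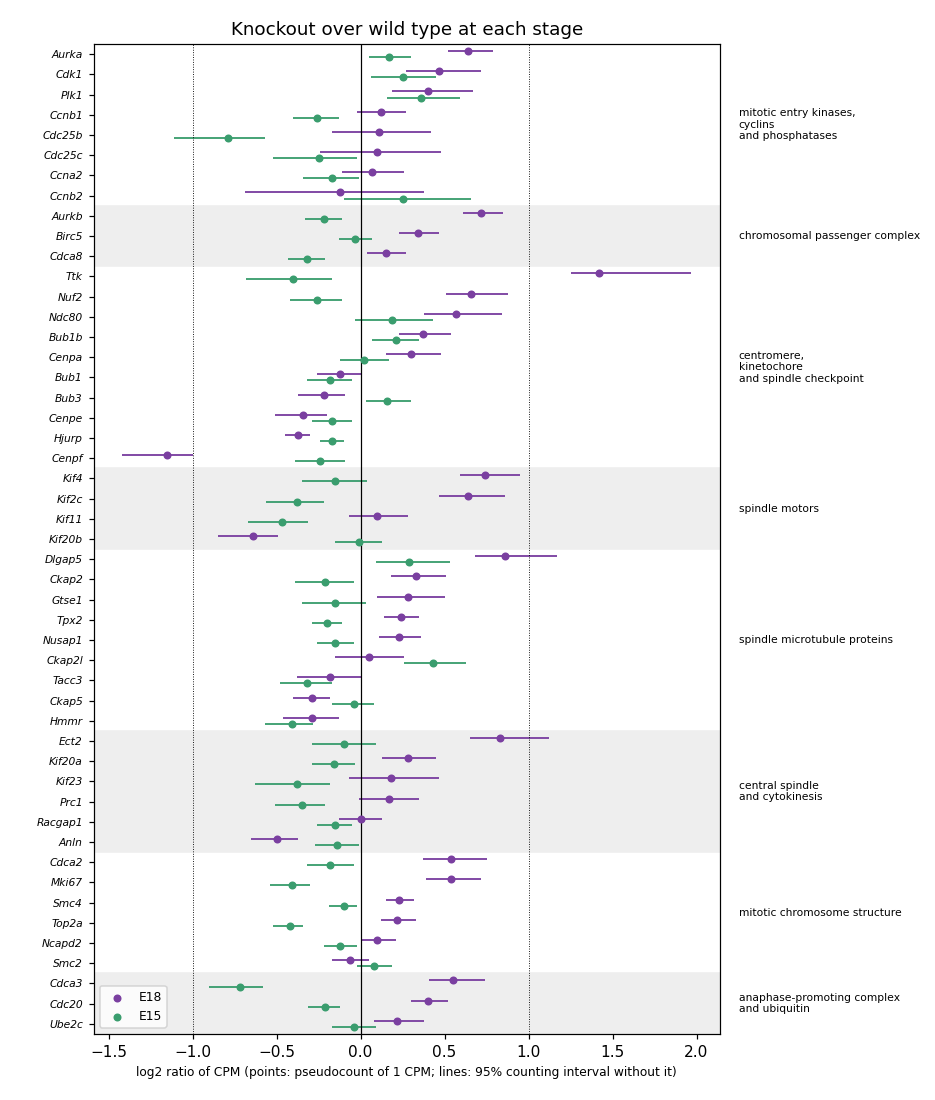
Log2 ratio of knockout over wild type for each of the 49 genes at E15 (green) and E18 (purple), drawn as in the plot of stage ratios. At E15 the points lie between -0.79 and 0.43. At E18 they spread from -1.15 for Cenpf to 1.42 for Ttk, and 37 of 49 lie right of 0.

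The genes that start mitosis (8 members) summed to 252, 246, 142 and 178 CPM. Ccnb1, the cyclin that activates Cdk1 at mitotic entry, had 61.8, 51.6, 37.9 and 41.3 CPM, with both E15 libraries above both E18 libraries. Cdk1 itself had 26.4, 31.5, 14.0 and 19.8 CPM, with the knockout library above the wild type at each stage (log2 0.25, interval 0.06 to 0.45, and 0.47, interval 0.27 to 0.72). Aurka, the kinase of spindle poles, had 59.3, 67.0, 36.3 and 57.0 CPM, so that the wild-type library at E18 stood apart from the other 3. Plk1, a kinase that acts from mitotic entry to cytokinesis, had 19.8, 25.6, 12.3 and 16.5 CPM, higher in the knockout at both stages (log2 0.36 and 0.40). Cdc25b and Cdc25c, the phosphatases that activate Cdk1, were lower in the knockout library at E15 (log2 -0.79 and -0.25), as was Ccnb1 (-0.26). Cdc25b had 19.8, 11, 8.96 and 9.78 CPM, so that the wild-type library at E15 was high and the other 3 were close together. Cdc25c had 18.1, 15.1, 6.24 and 6.77 CPM and differed by stage, with log2 ratios of -1.40 (wild type) and -1.05 (knockout). Ccna2, the cyclin of S phase and G2, had 40.1, 35.6, 23.0 and 24.2 CPM, with genotype ratios of -0.17 and 0.07. It shares 12.5% of its exonic bases with Exosc9 on the other strand, which had 418, 606, 710 and 1192 reads. Ccnb2 rested on 60 to 135 reads per library, and its genotype intervals held 0 at both stages.

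The chromosomal passenger complex, which corrects faulty attachments of chromosomes and later guides cytokinesis, summed to 280, 248, 145 and 194 CPM over 3 members. Its kinase Aurkb had 91.2, 78.1, 44.7 and 74.0 CPM (1417, 1276, 852 and 1627 reads). The wild-type library at E18 was low and the knockout library at E18 lay near the E15 libraries, with an E18 genotype ratio of 0.72 (interval 0.61 to 0.85) and a knockout stage ratio of -0.08 (interval -0.19 to 0.03). Birc5, the survivin subunit, had 101, 99.5, 47.5 and 60.5 CPM, and here both E18 libraries lay well below both E15 libraries. Cdca8, the borealin subunit, had 87.7, 70.2, 53.3 and 59.3 CPM, in the same order of stages. The stage ratios of Aurkb, Birc5 and Cdca8 were -1.01, -1.08 and -0.71 in the wild type and -0.08, -0.71 and -0.24 in the knockout. The 3 subunits therefore did not keep the same proportion between stages in either genotype. Incenp, a subunit outside the 49 genes and chosen after its values were seen, had 69, 49, 38.2 and 33.9 CPM. Its E18 genotype ratio was -0.17, where those of the 3 members were above 0.

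Genes of the centromere, kinetochore and spindle checkpoint (10 members) summed to 631, 589, 418 and 387 CPM and held both ends of the range of genotype ratios at E18. Ttk, the checkpoint kinase Mps1, had 300, 235, 85 and 298 reads, or 19.3, 14.4, 4.46 and 13.5 CPM. The wild-type library at E18 was low and the other 3 lay within 13.5 to 19.3 CPM, which gave the widest stage ratio among the members in the wild type (-1.90, interval -2.48 to -1.76) and one of -0.08 in the knockout (interval -0.34 to 0.17). Cenpf, a large protein of the outer kinetochore, had 739, 657, 560 and 279 reads, or 47.5, 40.2, 29.4 and 12.7 CPM. Here the knockout library at E18 was the low one (genotype ratio -1.15, interval -1.42 to -1.0), and the stage ratio was -0.68 (wild type) and -1.59 (knockout). Cenpe, the kinesin that carries chromosomes to the spindle's middle, shared that order at 75.5, 66.9, 38.6 and 30.2 CPM.

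Nuf2 and Ndc80 are partners in the complex that grips microtubules. Nuf2 had 45.7, 38.0, 19.1 and 30.8 CPM and Ndc80 18.5, 21.3, 12.7 and 19.4 CPM, both lowest in the wild-type library at E18 and both higher in the knockout there (log2 0.66 and 0.57). At E15 they lay on opposite sides of 0 (-0.26, and 0.19 with an interval of -0.03 to 0.43). The checkpoint proteins differed among themselves as well. Bub1b had 50.4, 58.4, 29.9 and 38.9 CPM, Bub1 60.7, 53.3, 45.1 and 41.4 CPM, and Bub3, which also has work outside mitosis, 52.1, 58.5, 43.5 and 37.1 CPM. Bub3 had the smallest stage difference of the 3 in the wild type (-0.26). Cenpa, the histone H3 variant that marks centromeres, had 51.0, 51.9, 26.7 and 33.2 CPM, equal within counting error at E15. Hjurp, the chaperone that deposits it, had 210, 186, 169 and 130 CPM, with a wild-type stage ratio of only -0.31. Cenpa and Hjurp thus went opposite ways between genotypes at E18 (0.30 and -0.37).

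The spindle motors (4 members) summed to 164, 140, 95.5 and 110 CPM. Kif11, the kinesin that pushes spindle poles apart, had 39.0, 27.8, 25.5 and 27.4 CPM, high in the wild-type library at E15 alone. Kif2c, a kinesin that takes microtubules apart at centromeres, had 41.8, 31.8, 18.1 and 28.7 CPM, with genotype ratios of -0.38 and 0.64. The chromosome motor Kif4 had 27.9, 25, 20 and 34.1 CPM and was the member with the highest knockout stage ratio (0.43, interval 0.27 to 0.62). Of its exonic bases, 15.1% overlap Pdzd11 on the other strand. Kif20b, a kinesin of late cytokinesis, had 55.8, 55.4, 31.9 and 20.1 CPM. Its E15 libraries agree within counting error, and at E18 the knockout library was lower (-0.64, interval -0.85 to -0.49).

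Proteins that build and bundle spindle microtubules (9 members) summed to 504, 457, 318 and 339 CPM. Tpx2, which activates Aurora A on the spindle, had 134, 117, 64.2 and 76.2 CPM, and Nusap1, a bundling protein, 89.4, 80.5, 50.5 and 59.5 CPM. Both had the wild type above the knockout at E15 and below it at E18, with E15 above E18 throughout. Ckap5, a microtubule polymerase used outside mitosis too, had 62.9, 61.0, 71.7 and 58.5 CPM, and its wild-type stage ratio was 0.18 (interval 0.07 to 0.31). Dlgap5, which stabilises kinetochore fibres, had 19.0, 23.6, 10.6 and 20.1 CPM, with the wild-type library at E18 apart from the rest. Hmmr, a spindle pole protein, had 56.8, 42.4, 32.6 and 26.6 CPM, lower in the knockout at both stages (-0.41 and -0.29). Tacc3, the partner of Ckap5 on spindle fibres, had 46.2, 36.9, 24.0 and 21.1 CPM. Gtse1, a microtubule-binding protein of G2 and mitosis, had 31.5, 28.2, 18.3 and 22.5 CPM. The related Ckap2 and Ckap2l did not run together, at 37.4, 32.2, 27.0 and 34.2 CPM and at 26.2, 35.6, 19.4 and 20.1 CPM. The knockout library was the lower one at E15 for Ckap2 (-0.21) and the higher one for Ckap2l (0.43).

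Genes of the central spindle and cytokinesis (6 members) summed to 332, 290, 172 and 178 CPM. Ect2, Kif20a, Kif23 and Prc1, 4 of the 6, were past 2-fold lower at E18 in the wild type. Of all genes 10.7% passed there in either direction, and Prc1 no longer passed under TMM. The knockout stage comparison had 0 of the 6 past 2-fold, against 15.3% of all genes. Racgap1 and Kif23, the partners of the centralspindlin complex, had 98.6, 88.7, 49.6 and 49.7 CPM and 24.4, 18.5, 10.5 and 12 CPM. Both were lower at E18 in each genotype, and Racgap1 had a genotype ratio of 0.00 at E18 (interval -0.13 to 0.13). Prc1, which cross-links the central spindle, had 51.9, 40.5, 23.6 and 26.6 CPM. Kif20a, a kinesin that moves the passenger complex there, had 63.4, 56.8, 28.2 and 34.5 CPM. Its count may be affected by Cdc23, which shares 29.3% of its exonic bases on the other strand. Ect2, the activator of the small GTPase RhoA in cytokinesis, had 30.6, 28.5, 11.4 and 21.0 CPM, so the wild-type library at E18 was low (genotype ratio 0.83, interval 0.65 to 1.12). Anln, the anillin scaffold of the cleavage furrow, had 62.9, 57.1, 48.8 and 34.3 CPM, with the knockout library at E18 lowest.

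Genes of mitotic chromosome structure (6 members) summed to 639, 558, 362 and 417 CPM. Smc4 and Smc2, the core pair of condensin, had 152, 141, 105 and 124 CPM and 86.4, 91.6, 68.1 and 65.5 CPM, with small stage ratios in the wild type (-0.53 and -0.34). Their partner Ncapd2 had 108, 99.6, 70.6 and 76.0 CPM. Top2a, the topoisomerase that untangles sister chromatids, had 155, 116, 71.7 and 83.9 CPM, with genotype ratios of -0.42 (interval -0.52 to -0.34) and 0.22 (interval 0.12 to 0.33). Mki67, the proliferation marker that coats mitotic chromosomes, had 84.0, 63.0, 26.7 and 39.2 CPM. Its 4 libraries were well separated, with stage ratios of -1.62 (wild type) and -0.67 (knockout). Cdca2, which recruits a phosphatase to chromosomes at mitotic exit, had 53.2, 47.0, 19.7 and 29.0 CPM, in the same order.

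The genes of the anaphase-promoting complex's mitotic step (3 members) summed to 246, 205, 112 and 148 CPM. Cdc20, its activator, had 133, 115, 54.4 and 72.2 CPM (2067, 1871, 1037 and 1588 reads). The genotype ratios were -0.21 (interval -0.31 to -0.12) and 0.40 (interval 0.30 to 0.52), and the stage ratios -1.28 (wild type) and -0.66 (knockout). Ube2c, its ubiquitin-conjugating enzyme, had 61.0, 59.3, 33.6 and 39.4 CPM. Of its exonic bases, 22.8% overlap Tnnc2 on the other strand, a gene not listed at either stage. Cdca3, a cofactor in the destruction of the mitosis inhibitor Wee1, had 51.7, 31.0, 24.5 and 36.4 CPM. It was the member with the second-lowest ratio at E15 (-0.72, interval -0.90 to -0.58) and a ratio of 0.55 at E18 (interval 0.41 to 0.74).

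Transcript length and promoter elements were set beside the ratios. At E18 the 16 members with the longest exons (6341 to 15433 bases) had a median genotype ratio of 0.05, with 9 of 16 above 0, and the 17 with the shortest (1531 to 4275 bases) one of 0.28, with 15 of 17 above 0. All genes of those lengths had medians of -0.08 and 0.06. Across the 49 genes Spearman's rho between exonic length and the E18 genotype ratio was -0.32 (Pearson's r -0.35 with log2 length), over genes that share the same 2 libraries. The E15 genotype comparison had a rho of -0.16, and the stage comparisons gave 0.09 (wild type) and -0.12 (knockout). In the wild-type stage comparison the 31 members with both promoter elements had a median of -0.75 and the 10 with a window but not both one of -0.86. In the knockout the order was the reverse, with medians of -0.58 and -0.39. Of the 9216 other genes with a window, the 819 with both elements (8.89%) had a wild-type stage median of -0.12 and the rest one of -0.10.

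Other genes of the cell cycle were described by lists chosen with earlier results known. Of 83 further G2 and mitosis genes measured, 75 were lower at E18 in the wild type (median -0.61, 17 past 2-fold lower and 1, Nek2, higher). In the knockout 63 were lower (median -0.38), and 18 passed 2-fold, all lower. Over all genes 60.9% and 57.9% were lower at E18. Past 2-fold in either direction were 21.7% of the list in each genotype, against 10.7% (wild type) and 15.3% (knockout) of all genes. Their genotype medians were -0.11 at E15, with 50 of 83 below 0, and 0.10 at E18, with 50 of 82 above 0. Kpna2, a nuclear import factor, had 279, 228, 181 and 193 CPM, Ncaph of condensin I 196, 203, 228 and 229 CPM, and Ncaph2 of condensin II 100, 92.9, 81.2 and 87.7 CPM. Of these 3 Ncaph alone had stage ratios above 0 in both genotypes (0.21 and 0.17). Between genotypes 5 of 83 were past 2-fold at E15 (6.02%) and 7 of 82 at E18 (8.54%), near the shares of all genes (6.87% and 6.80%), so these counts say nothing particular to the list. At E15 the genes past 2-fold were Aspm (-1.33), Kif14 (-1.22) and Pkmyt1 (-1.22) on the lower side and Fzr1 (2.00) and Nek2 (1.01) on the higher. Aspm, a spindle pole protein of dividing progenitors, had 28.2, 10.7, 9.8 and 17 CPM, high in the wild-type library at E15. Fzr1, the activator of the anaphase-promoting complex after mitosis, had 14.9, 62.5, 12.1 and 11.7 CPM, with the knockout library at E15 apart from the rest. At E18 Ska1 (1.29), Dsn1 (1.15) and Trip13 (1.11) were past 2-fold higher and Parpbp (-1.70), Cenpp (-1.52), Kif14 (-1.06) and Ska3 (-1.05) lower. Parpbp had 54 reads in the wild-type library at E18 and 4 in the knockout.

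Genes of DNA replication and S phase, the step before, were also set beside them. Of 39 measured, 37 were lower at E18 in the wild type (median -0.53) and 24 in the knockout (median -0.09), where 60.9% and 57.9% of all genes were lower (medians -0.11 and -0.10). In the knockout the S phase genes thus lay at the level of all genes. Their genotype medians were -0.10 at E15 and 0.31 at E18, beside -0.17 and 0.22. The difference between the lists was not tested. The replication helicase gene Mcm3 had 221, 182, 173 and 253 CPM, highest in the knockout library at E18. The ribonucleotide reductase gene Rrm1 had 230, 188, 129 and 176 CPM, lowest in the wild-type library at E18. Core subunits of the anaphase-promoting complex, which are not restricted to mitosis, had stage medians of -0.05 and -0.11 (14 measured), close to all genes.

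**Figure D4:**
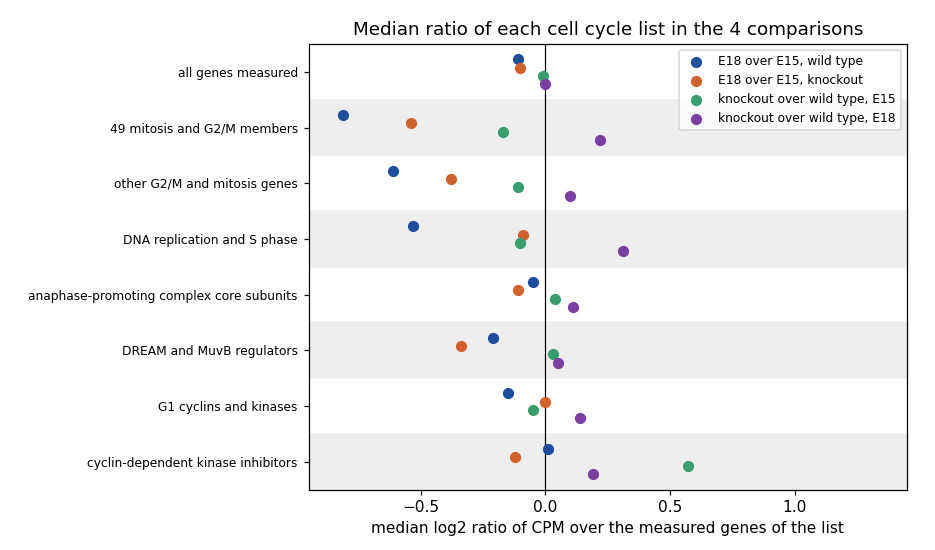
Median log2 ratio of CPM over the measured genes of each list in the 4 comparisons, with all genes measured on top. The 49 members have the lowest stage medians of the lists drawn (-0.81 (wild type) and -0.54 (knockout)). Their genotype medians lie at -0.17 and 0.22.

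An additive test over all 4 libraries, with the other genotype standing in as the replicate of the stage effect, gave the only p-values. By stage the quasi-likelihood test of edgeR called 0 of 49 members at a Benjamini-Hochberg adjusted p under 0.05, where 0.760% of 13416 genes were called. At an unadjusted p under 0.05, 33 members were lower at E18 and 0 higher, against 16.9% of all genes in either direction. The smallest adjusted p among members was 0.0606 for Cenpe (log2 -1.06). DESeq2 called 11 members lower at E18, where it called 5.63% of all genes, and edgeR with a filter of 5 CPM called 17, where it called 9.30%, so the count of calls depends on the method. By genotype edgeR called 0 members and 0 of all genes (0%). At an unadjusted p under 0.05 it gave 1 member, Cenpf (log2 -0.72, edgeR adjusted p = 0.969), and 672 of all genes (5.01%). DESeq2 called 38 genes higher and 9 lower in the knockout (0.350%), and 0 members, 1 of which had no adjusted p. The median estimate of the members was -0.67 by stage, with 48 of 49 below 0, and 0.04 by genotype. The test has 1 residual degree of freedom and counts an effect of genotype that differs between stages as noise.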

How the data were processed

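The authors deposited a table per stage that holds, per the file headers, unnormalized counts of reads for each Ensembl identifier. The 4 count columns were used. Named without roles in the submitters' processing notes are TopHat2 2.0.12, Bowtie2 2.2.3, HTSeq 0.6.0 and the build mm9. Whether counting used strand was not stated in those notes, so the counts of genes overlapping on opposite strands may be affected, in a direction not known here. Start and end matched GENCODE M21 (GRCm38) for 90.1% of 20143 identifiers, so the tables were read as GRCm38, and exonic lengths come from that annotation.

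Counts were scaled to library totals. A gene entered a comparison if either library reached 1 CPM and the pair held 50 reads. The additive model was fitted across all genes in both tables with at least 1 CPM in 2 libraries (edgeR 4.0.16, DESeq2 1.42.0, R 4.3.3), and p-values were adjusted over all of them. The model was also run on simulated data with less spread and larger changes than here, so that run cannot show how it performs on these libraries. Intervals used scipy 1.17.1. Members and lists were chosen with earlier results of these data known. All members may be named. The rule named, per comparison, members past 2-fold and the 3 highest and 3 lowest ratios, and per role the member with the highest mean CPM. Of other lists it named the 3 genes with the highest mean CPM and those past 2-fold, some of which are left out for brevity. Alternatives were TMM and DESeq2 scaling, pseudocounts of 0.25 and 5 CPM, no filter or 10 CPM, centring by exonic length, and, chosen after seeing the data, members without exonic overlap with another gene.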

Additional observations from a re-analysis of the deposited data

Results flagged for a closer look

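The median knockout to wild-type ratio of the mitosis genes had opposite signs at the 2 stages, and the median at E18 less that at E15 was 0.39 on the log2 scale. By single genes, 9 members were below 0 at both stages and 8 above 0 at both. For each gene the E18 less E15 difference is also its knockout stage ratio less its wild-type one. With 1 library per group this difference was not tested for any gene. Members whose counting intervals lay on opposite sides of 0 at E15 and E18 had these differences, E18 less E15. Ttk had 1.81, Cdca3 1.27 and Kif2c 1.02. Mki67 had 0.95, Aurkb 0.94, Nuf2 0.92 and Cdca2 0.71. Top2a had 0.65, Cdc20 0.62, Ckap2 0.54 and Cdca8 0.47. Kif20a and Tpx2 each had 0.44, Nusap1 0.38, Smc4 0.33 and Ncapd2 0.22. Bub3 alone in this group went the other way, with -0.39. Members outside the group ran from -0.91 (Cenpf) to 0.92 (Ect2), with Kif20b at -0.63 and Cdc25b at 0.90.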

How the results depend on the processing

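The direction of the members' median held in all 4 comparisons under each of the 8 alternatives, and no result reversed. The wild-type stage median of -0.81 became -0.69 under TMM scaling and -0.70 with DESeq2 size factors. The count of 17 members past 2-fold there became 10 under TMM, DESeq2 size factors and centring by length. In the knockout stage comparison 3 members stood above 0, against 7 under TMM and DESeq2 size factors and 5 after centring by length. The 5 past 2-fold became 3 with DESeq2 size factors and with a pseudocount of 5 CPM. At E18 the 2 members past 2-fold between genotypes became 0 with that pseudocount and 1 after centring by length. The additive test of stage called 0 members, against 11 with DESeq2 and 17 with a filter of 5 CPM in 2 libraries. Leaving out a library gave no value, since each group holds 1 and the additive model would keep no residual degree of freedom. Read depth limits Ccnb2 and Ttk most, with 60 and 85 reads in their shallowest libraries.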

Other observations

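The cyclin-dependent kinase inhibitors, the brakes of the cycle, did not share a direction with stage. Cdkn1a, the kinase inhibitor p21, was higher at E18 in both genotypes, with 170, 223, 371 and 467 CPM in the order wild type E15, knockout E15, wild type E18, knockout E18 (stage log2 1.12 and 1.07). Cdkn2b, the inhibitor p15, had 27.3, 46.6, 78.4 and 79.6 CPM (stage log2 1.49 and 0.76, genotype log2 0.75 and 0.02). Cdkn2d had 83.5, 78.6, 81.3 and 96.3 CPM, and Cdkn2c, with 31, 89, 40 and 38 reads, was 2-fold higher in the knockout library at E15 alone (log2 1.11). Cdkn1b, the inhibitor p27, was lower at E18 in both genotypes, with 32.6, 35.3, 21.8 and 24.1 CPM (stage log2 -0.56 and -0.53). Of the 6 inhibitors measured, 3 were above 0 with stage and 3 below in each genotype (medians 0.01 and -0.12). Their genotype medians were 0.57 at E15 and 0.19 at E18.

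The G1 cyclins Ccnd1 (539, 556, 639 and 582 CPM) and Ccnd3 (487, 466, 568 and 636 CPM) were not lower at E18, with stage ratios between 0.06 and 0.45. Cdk4 had 208, 207, 159 and 173 CPM. The cyclins of S phase entry, Ccne1 (20.3, 15, 9.8 and 14.6 CPM, chosen after its values were seen) and Ccne2 (45.6, 41.1, 21.2 and 32.8 CPM), were lowest in the wild-type library at E18, with wild-type stage ratios of -0.98 and -1.07. Of the 8 G1 cyclins and kinases, 7 were below 0 between genotypes at E15 and 7 above 0 at E18 (medians -0.05 and 0.14). The shares over all genes were 50.6% and 50.3%. The interval lay below 0 for 3 of the 8 at E15 (30.5% of all genes) and above 0 for 5 at E18 (32.5%). Among the 17 regulators of the DREAM and MuvB complexes, Rbbp4 had 171, 163, 192 and 226 CPM. E2f5 had 27.7, 41.2, 12.8 and 17.5 CPM (stage log2 -1.06 and -1.19). In the wild type it alone passed 2-fold with stage (5.88%, against 10.7% of all genes). In the knockout 3 regulators were past 2-fold lower and 1 higher (23.5%, against 15.3% of all genes). Rb1, the retinoblastoma gene, had 86, 152, 184 and 68 reads, with genotype ratios of 0.66 at E15 and -1.38 at E18. These counts are of single libraries, and none of the differences was tested.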
